A study of Mus musculus with 6 samples.

Results

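The probes described here are the CpG-dense probes near gene starts on mouse promoter arrays that were used to map Rybp in embryonic stem (ES) cells. A probe was taken when it was not a control, lay within 1 kb of a start annotated in the scanner files of the Dnmt1-KO arrays and held at least 8 CpG dinucleotides per 100 bases of its own sequence. The rule used sequence and position only, and no measured signal. It was met by 13503 of 474380 non-control probes, which is 2.85%, and by 8.20% of the 164636 probes near starts. A further 26 of the 13503 carried an outlier flag on at least 1 array and were left out, so 13477 were measured, 6746 on array 1 and 6731 on array 2 of the set.

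The study measured where Rybp sits on DNA by chromatin immunoprecipitation and hybridisation (ChIP-chip) in ES cells with a constitutive Eed knockout (Eed-KO), ES cells with a constitutive Dnmt1 knockout (Dnmt1-KO) and wild-type (WT) ES cells. Per the labels, cells were fixed with 1% formaldehyde for 10 min, chromatin was sheared to 0.3 to 0.5 kb on average, and both immunoprecipitated (IP) DNA and input DNA went through T7 RNA polymerase amplification before labelling. IP DNA was read in the red channel and input DNA in the green channel of the same array. The 2 array designs of the set hold different probes, so each probe had 1 array per genotype, there were no replicates and no p-value was computed. All cells were grown in serum with a leukaemia inhibitory factor preparation, on irradiated feeder fibroblasts or on gelatin, and neither the surface nor the number of clones is stated for any genotype. The arrays hold genomic DNA, so the identity of the cells and the loss of each gene could not be checked from expression.

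CpG islands are stretches of DNA rich in CpG and G+C that cover most housekeeping and many developmental promoters, and most of them lack DNA methylation. The demethylase KDM2B binds unmethylated CpG through a zinc finger and brings a variant form of Polycomb repressive complex 1 (PRC1), which ubiquitinates histone H2A and holds Rybp or its paralogue Yaf2 as a subunit. Eed belongs to the core of Polycomb repressive complex 2 (PRC2), which methylates lysine 27 of histone H3, a mark to which the canonical, Cbx-containing forms of PRC1 bind. Dnmt1 copies CpG methylation to the new strand after replication, and CpG-rich promoters of germ-line genes are among those that carry it. A probe's own CpG and G+C content also bears on how it hybridises, so input and IP signals are given apart from their ratio.

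The following members are shown because they hold extreme levels or the most CpG among members that passed a signal filter. The filter asked for both channels well above background and unsaturated on every array of the design. The ranks leave out 1 picked probe that is not reported here, and the highest germ-line member in WT had 3.37. Every CpG is in capitals and sequences are written 5′ to 3′ on the strand printed on the array. The level of a probe is log2 of IP over input signal minus the median of all non-control probes on that array. Coordinates are those of the files, and the build of the genome is not stated in the sources used here.
Stag3, highest WT level, chr5:138510162-138510206: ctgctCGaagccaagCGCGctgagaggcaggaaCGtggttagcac
Cadm1, lowest WT level, chr9:47281255-47281299: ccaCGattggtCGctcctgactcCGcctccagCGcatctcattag
Rhbdl3, next lowest WT level, chr11:80117039-80117083: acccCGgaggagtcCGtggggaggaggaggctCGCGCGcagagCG
Pdha1, most positive Dnmt1-KO minus WT, chrX:155482150-155482194: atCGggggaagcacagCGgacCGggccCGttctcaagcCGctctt
Sirt3, most negative Dnmt1-KO minus WT, chr7:140733128-140733172: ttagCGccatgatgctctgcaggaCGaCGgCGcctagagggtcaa
Gpam, most CpG, chr19:55152716-55152760: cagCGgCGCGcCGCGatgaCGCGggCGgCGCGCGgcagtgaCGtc
Hdac2, a CpG-free probe near a start with the highest WT level of its kind, chr10:36663401-36663456: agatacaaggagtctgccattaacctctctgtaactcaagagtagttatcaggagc

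The Stag3 probe lies 154 bp upstream of the start of this meiotic cohesin gene, in a promoter shared with Gpc2, and had levels of 2.91 in Eed-KO, 3.46 in Dnmt1-KO and 3.09 in WT. It was thus high in every genotype. The Cadm1 probe, 69 bp upstream of this cell adhesion gene, had 0.27 in Eed-KO, 1.22 in Dnmt1-KO and -3.67 in WT, where its IP signal stood at -4.15 relative to the array median. It also has the highest Eed-KO minus WT difference among members so filtered, 3.94, and that difference rests on 1 low WT spot. The Rhbdl3 probe had -3.04 in Eed-KO, 0.95 in Dnmt1-KO and -2.98 in WT, with input signals of 3.87, 2.67 and 3.83 in the same genotypes.

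The Pdha1 probe, 269 bp inside the gene of a pyruvate dehydrogenase subunit, had 0.04 in Eed-KO, 5.53 in Dnmt1-KO and 0.20 in WT. The Sirt3 probe, beside the start of a mitochondrial deacetylase gene, had 0.11 in Eed-KO, -2.003 in Dnmt1-KO and 0.18 in WT, with a Dnmt1-KO input signal of 5.89 against an IP signal of 3.84. The Gpam probe holds 12 CpG at 82.2% G+C and had 0.48 in Eed-KO, 1.39 in Dnmt1-KO and 0.71 in WT. The densest sequence thus lay above the members' upper quartile in Eed-KO and WT, though below a level of 1, and near their median in Dnmt1-KO. The Hdac2 probe, which holds no CpG and 42.9% G+C, had 3.16 in Eed-KO, 3.68 in Dnmt1-KO and 3.17 in WT, as high as the Stag3 probe. A high level therefore did not need a CpG within the probe itself.

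Members share more than the rule asked for. Their length was between 45 and 60 bases with 95.5% of them at 45 bases, the shortest on the array, where the median probe has 57. The median member held 5 CpG, or 11.1 per 100 bases with a highest value of 26.7, and had 66.7% G+C, against 42.3% for the other probes near starts and 40.4% for all probes. Within 250 bp of the start lay 64.8% of members, against 26.7% of the other near-start probes, and 61.8% of members lay downstream. They belong to 7052 genes, of which 3556 have 1 member, 504 have at least 4 and none has more than 7. Another 777 members had no RefSeq gene start assigned.

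Members of 1 gene lie within the length of a few sheared fragments and are not replicates, and intervals given for shares and medians cover counting error over probes only. The SD of the log2 ratio over all probes was 0.45 and 0.47 on the Eed-KO arrays, 0.96 and 0.91 on the Dnmt1-KO arrays and 0.41 and 0.42 on the WT arrays, and that of the input signal was 1.02 and 1.04, 2.44 and 2.44, and 0.96 and 1.04 in the same order. The Dnmt1-KO files also name another scanner model and extraction version, so genotype and scan cannot be told apart in any comparison with Dnmt1-KO. Members were well above background on every array in at least 99.9% of cases, and their IP signal was saturated for 274 and 215 members on the Dnmt1-KO arrays and for none elsewhere.

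Members stood above the other probes near starts in all 3 genotypes, by far the most in Dnmt1-KO. Their median level was 0.22 in Eed-KO (quartiles -0.01 and 0.48), 1.42 in Dnmt1-KO (1.03 and 1.83) and 0.42 in WT (0.25 and 0.63). The other near-start probes had medians of 0.11, 0.38 and 0.13 in Eed-KO, Dnmt1-KO and WT, near-start probes free of CpG had 0.02, 0.06 and 0.02, and probes over 1 kb from a start had -0.05, -0.15 and -0.06. The 1259 CpG-dense probes over 1 kb from any start had 0.31, 1.40 and 0.45, which is close to the members and not to the other distant probes. These levels thus went with CpG density whether or not a start was near.

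A level of 1 or more means an IP over input ratio 2-fold above the array median. It was reached by 793 members in Eed-KO, or 5.88% (exact 95% binomial interval 5.49 to 6.29), against 3.13% of all non-control probes. In Dnmt1-KO it was reached by 10342 members, or 76.7% (76.0 to 77.4), against 15.2% of all probes. In WT it was reached by 859 members, or 6.37% (5.97 to 6.80), against 2.59% of all probes. The other near-start probes reached it in 5.62%, 27.1% and 4.87% of cases in Eed-KO, Dnmt1-KO and WT. In Eed-KO and WT the members' share thus lay only slightly above that of other near-start probes, while their median stood clearly higher, so the class was shifted as a whole and held few strong probes. A level of -1 or less was found for 45, 15 and 28 members in Eed-KO, Dnmt1-KO and WT. These are 0.33%, 0.11% and 0.21% of members, against 0.87%, 9.33% and 0.41% of all probes.

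**Figure D1:**
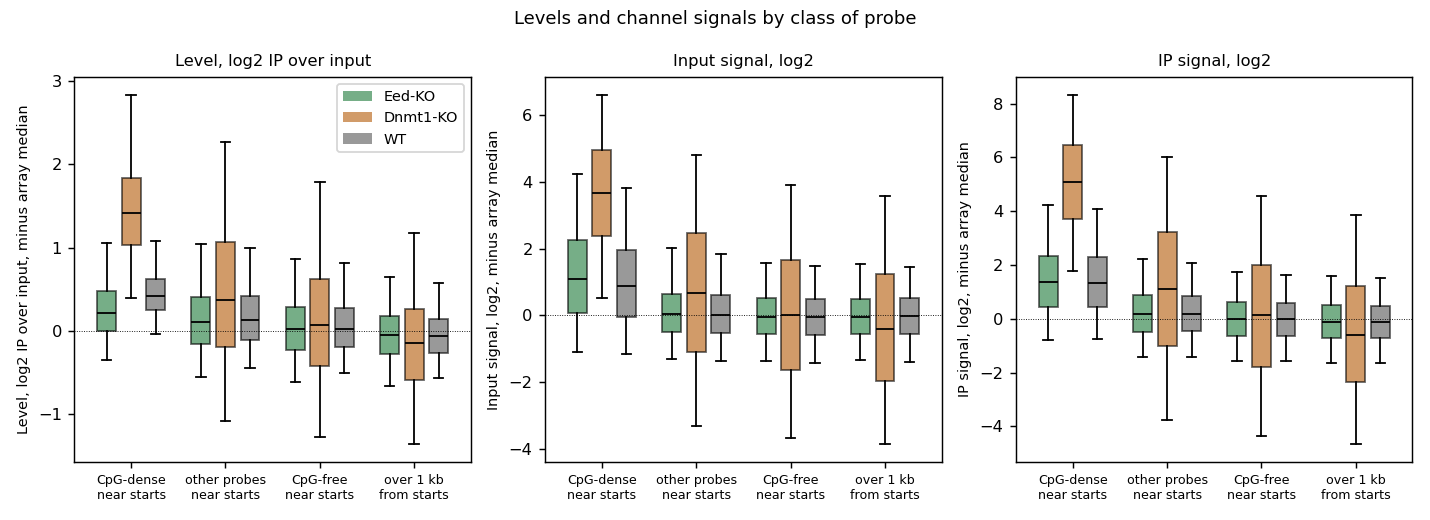
Level, input signal and IP signal (log2, relative to the array median) of 4 probe classes in Eed-KO, Dnmt1-KO and WT. Boxes give the median and quartiles and whiskers the 5th and 95th percentiles over probes. CpG-dense near-start probes have median levels of 0.22, 1.42 and 0.42, above CpG-free near-start probes at 0.02, 0.06 and 0.02.

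Both channels of the members were bright. Their median input signal was 1.10 in Eed-KO, 3.65 in Dnmt1-KO and 0.89 in WT above the array median on the log2 scale, and their median IP signal was 1.36, 5.07 and 1.33. The input channel holds no antibody signal, yet at these probes it too stood well above the median. The level is thus the remainder of 2 raised values, and in Dnmt1-KO both were much larger than in the other genotypes. The IP median lay nearest to the input median in Eed-KO and furthest above it in Dnmt1-KO.

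The order of members was shared between Eed-KO and WT more than with Dnmt1-KO. Across members, Pearson's r of the level was 0.77 on array 1 and 0.78 on array 2 for Eed-KO against WT, 0.41 and 0.39 for Dnmt1-KO against WT, and 0.36 and 0.38 for Dnmt1-KO against Eed-KO. The input signal, which shares the probe sequence and no antibody, correlated at 0.98 and 0.97 between Eed-KO and WT and at 0.77 and 0.77 between Dnmt1-KO and WT. Of the members at a level of at least 1, 545 were shared by Eed-KO and WT, which is 68.7% of the Eed-KO and 63.4% of the WT members. Dnmt1-KO and WT shared 806, or 7.79% of the Dnmt1-KO members and 93.8% of the WT members, and 520 reached the level in all 3 genotypes. Over all members 5.88% reached it in Eed-KO, 76.7% in Dnmt1-KO and 6.37% in WT. The 93.8% thus stands against 76.7% for members at large.

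Along CpG density the genotypes took different courses. In bins of 0, over 0 to 2, 2 to 4, 4 to 6, 6 to 8, 8 to 10, 10 to 12 and over 12 CpG per 100 bases, the median Eed-KO level of near-start probes was 0.02, 0.09, 0.20, 0.26, 0.26, 0.24, 0.21 and 0.19, so it was highest at intermediate density and lower again within the members. The Dnmt1-KO level was 0.06, 0.26, 0.67, 1.02, 1.21, 1.33, 1.41 and 1.53 in the same bins. The WT level was 0.02, 0.10, 0.23, 0.33, 0.38, 0.40, 0.43 and 0.46, and in both Dnmt1-KO and WT each denser bin was higher than the one before.

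The IP signal alone did not turn down in Eed-KO. In the densest bin its median was 1.57 in Eed-KO, 5.29 in Dnmt1-KO and 1.58 in WT, while the input signal was 1.40 in Eed-KO, 3.79 in Dnmt1-KO and 1.14 in WT. The share of members at a level of at least 1 in the 3 densest bins was 7.34%, 5.33% and 3.89% in Eed-KO, 71.0%, 76.8% and 86.9% in Dnmt1-KO, and 7.23%, 5.84% and 5.42% in WT. In WT the median thus grew with CpG density while the share of strong probes shrank.

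**Figure D2:**
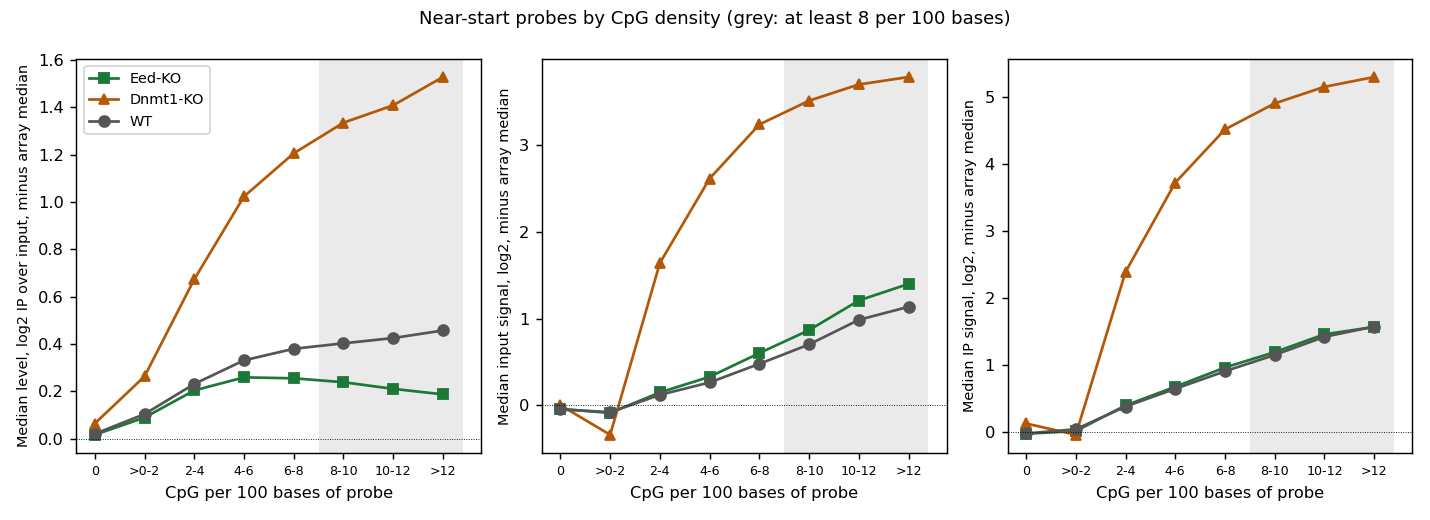
Median level, input signal and IP signal (log2, relative to the array median) of near-start probes by CpG per 100 bases of probe sequence, for Eed-KO, Dnmt1-KO and WT. At over 12 CpG per 100 bases the median level is 0.19 in Eed-KO, 1.53 in Dnmt1-KO and 0.46 in WT.

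At the CpG threshold the 6232 members with 8 to 9 CpG per 100 bases had median levels of 0.24 in Eed-KO, 1.34 in Dnmt1-KO and 0.40 in WT, and the 230 probes with 7 to 8 had 0.34, 1.10 and 0.40. The channels lay further apart there than the levels. Input medians were 0.87, 3.52 and 0.71 just inside and -0.29, 0.32 and -0.30 just outside. IP medians were 1.20, 4.91 and 1.16 just inside and 0.05, 1.52 and 0.12 just outside. A probe of 45 bases cannot hold 7 to 8 CpG per 100 bases, so the 230 probes have another length than most members. In the wider bin of 6 to under 8, input medians were 0.60, 3.24 and 0.48 and IP medians 0.97, 4.51 and 0.91. The gap just outside the threshold therefore cannot be told apart from probe length. At the distance limit, the 162 members 900 to 1000 bp from a start had 0.33, 1.40 and 0.46, and the 143 CpG-dense probes at 1000 to 1100 bp had 0.43, 1.56 and 0.55.

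Among members, counted by CpG per probe, the Eed-KO median level was 0.24 for the 6208 members with 4 CpG and 0.15 for the 197 with at least 9. In Dnmt1-KO these medians were 1.34 and 1.62, and in WT 0.40 and 0.49. Across members the level correlated with G+C content at -0.27 and -0.28 in Eed-KO, 0.01 and -0.00 in Dnmt1-KO and -0.15 and -0.13 in WT on arrays 1 and 2.

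Since CpG-dense probes are also G+C-rich, members were set beside near-start probes with under 4 CpG per 100 bases within 7 bins of equal G+C content from 40% to 75%. Members had the higher median level in 7 of 7 bins in each genotype, by 0.15 to 0.24 in Eed-KO, by 0.68 to 0.995 in Dnmt1-KO and by 0.24 to 0.32 in WT. Their input signal was lower than that of CpG-poor probes of the same G+C in every bin, by -0.99 to -0.43 in Eed-KO and by -0.94 to -0.45 in WT, and in Dnmt1-KO it differed by -0.79 to 0.33. Their IP signal differed by -0.74 to -0.23 in Eed-KO, by -0.27 to 1.03 in Dnmt1-KO and by -0.70 to -0.18 in WT. At matched G+C the higher level of members in Eed-KO and WT thus came with lower signals in both channels, the input being the lower one, and in Dnmt1-KO with a higher IP signal in 6 of 7 bins.

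The comparison is thin at the G+C-rich end, with 217 CpG-poor probes against 2853 members at 65% to 70% G+C and 31 against 2322 at 70% to 75%. Pooled over probes of 55% to 70% G+C, the difference in median level was 0.11 in Eed-KO, 0.76 in Dnmt1-KO and 0.25 in WT. With normexp background correction it was 0.02, 0.73 and 0.14. Pooled values are not matched on G+C, since 5305 of 6464 CpG-poor probes but 2462 of 8052 members lay at 55% to 60%. The pooled Eed-KO value of 0.11 lay below the 0.17, 0.16 and 0.15 of the bins it covers.

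**Figure D3:**
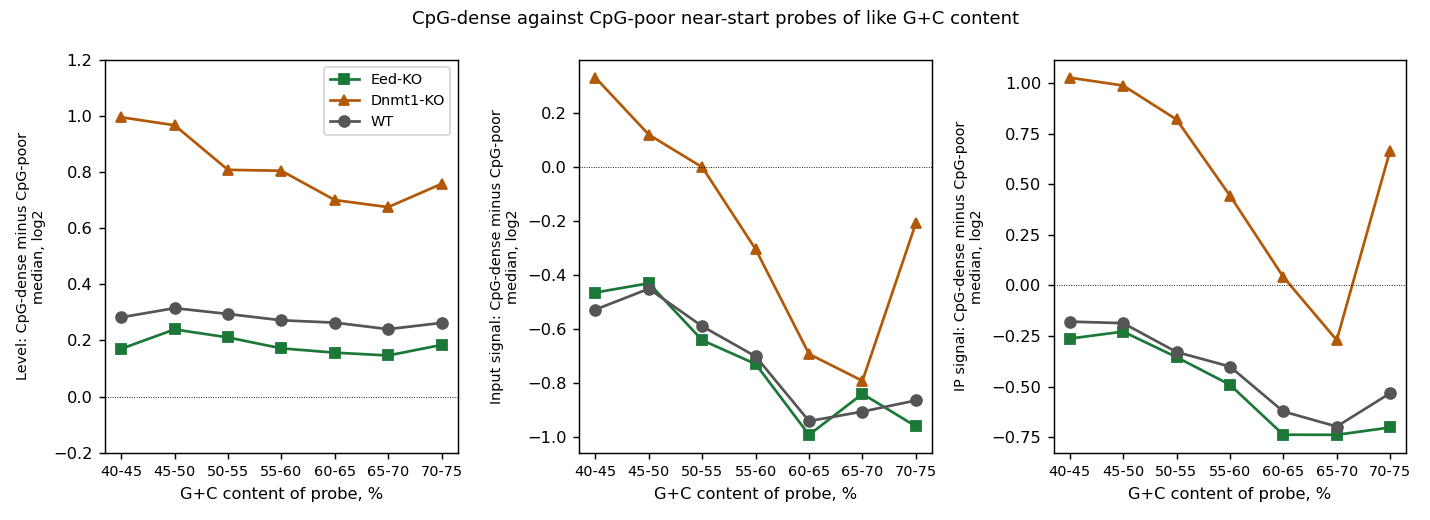
Median of CpG-dense minus median of CpG-poor (under 4 CpG per 100 bases) near-start probes in bins of probe G+C content, for level, input and IP (log2), in Eed-KO, Dnmt1-KO and WT. The level difference lies above 0 in 7 of 7 bins in every genotype, and the input difference lies below 0 in every bin in Eed-KO and WT.

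Levels also varied with the position of a member. In Eed-KO and WT they were lowest in the 250 bp just upstream of the start, with medians of 0.16 in Eed-KO, 1.36 in Dnmt1-KO and 0.38 in WT, and 3.21% of Eed-KO and 4.08% of WT members there at a level of at least 1. At 750 to 1000 bp downstream the medians were 0.40 in Eed-KO, 1.54 in Dnmt1-KO and 0.53 in WT, with 15.6% of Eed-KO and 12.8% of WT members at that level. The 8362 downstream members had medians of 0.25, 1.45 and 0.45 and the 5115 upstream members 0.17, 1.39 and 0.39. At 750 to 1000 bp upstream the Eed-KO and WT medians were 0.30 and 0.45, with 11.3% and 8.81% of members at that level. In Eed-KO and WT both flanks of CpG-dense promoters thus lay above the bin just upstream of the start, while medians in Dnmt1-KO ran from 1.34 to 1.54 over the distance bins.

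For 6283 genes a promoter held both members and CpG-free probes within 1 kb of a start. The median difference of members minus CpG-free probes in the same promoter was 0.02 in Eed-KO, 0.76 in Dnmt1-KO and 0.18 in WT, with members higher at 51.6%, 84.8% and 68.8% of genes. The input signal differed by 1.05, 3.11 and 0.88 between the same probes. In Eed-KO, therefore, members and CpG-free probes of the same promoters lay at the same median level. In WT the members lay slightly higher.

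Short motifs that hold a CpG and are known binding sites in CpG islands were counted on both strands of the members, and no motif holds another within its letters. The rule for members asks for CpG, so it favours motifs that hold one over motifs that hold none. Here and in the next paragraph, motif shares of members against all near-start probes are therefore a description and not a sign of enrichment. The E-box CACGTG, bound by Max with Myc or Mga and by Usf factors, was in 229 members, which is 1.70%, against 0.645% of all near-start probes. Members with it reached a level of at least 1 in 8.73% of cases in Eed-KO, 71.2% in Dnmt1-KO and 10.5% in WT, and members without it in 5.83%, 76.8% and 6.30%. Their median levels were 0.25, 1.47 and 0.44 with the E-box and 0.22, 1.42 and 0.42 without it. With 20 members at a level of at least 1 in Eed-KO and 24 in WT, the shares rest on few probes, and the differences were not tested.

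The GC box GGGCGG, bound by Sp and Klf factors, was in 1333 members or 9.89%, against 1.56% of all near-start probes. Members with it had median levels of 0.03 in Eed-KO, 1.40 in Dnmt1-KO and 0.31 in WT, and members without it 0.24, 1.43 and 0.44, with median G+C contents of 71.1% with and 64.4% without. The Ets motif CCGGAAG was in 313 members or 2.32%, against 0.539% of all near-start probes, with medians of 0.17, 1.14 and 0.35 with it and 0.22, 1.43 and 0.43 without it. The core of the cyclic AMP response element, TGACGTC, was in 144 or 1.07%, against 0.272%, with medians of 0.09, 1.22 and 0.33 with it and 0.22, 1.42 and 0.43 without it. Members that hold these sites of general promoter factors thus had lower median levels in each genotype, though for the GC box by little in Dnmt1-KO. The Dnmt1-KO share at a level of at least 1 was 81.5% with the GC box and 76.2% without it. It was 58.8% and 77.2% for the Ets motif and 63.9% and 76.9% for the cyclic AMP element core. The E2F motif TTCCCGC was in 264 members (1.96%, against 0.391% of all near-start probes), the Nrf1 core TGCGCA in 297 (2.20%, against 0.447%) and the Banp element core TCGCGA in 282 (2.09%, against 0.286%). For these motifs median levels with and without the motif differed by at most 0.08 in size in every genotype. CCAAT, which holds no CpG and is bound by Nf-y, was in 3.80% of members against 7.78% of all near-start probes.

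Loss of Eed was accompanied by a small shift of most members to lower levels. The median Eed-KO minus WT difference was -0.22 (quartiles -0.35 and -0.06), and it was -0.22 on each array design, while the other near-start probes had -0.02 and all probes -0.01. The difference was above 0 in 2573 of 13477 members, against 49.0% of all probes. Strong changes were as rare as elsewhere on the arrays, since 34 members, or 0.252%, were higher by at least 1, against 0.31% of all probes, and 58, or 0.430%, were lower by at least 1, against 0.451%.

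Input and IP divided this shift unequally. The median input difference was 0.23, with input higher in Eed-KO at 79.3% of members, and the median IP difference was 0.02. On array 1 the input and IP differences were 0.32 and 0.11, and on array 2 they were 0.14 and -0.07, so the sign of the IP difference depended on the design while the level difference did not. The lower level of members in Eed-KO was therefore read mainly in the input channel. Across the 3 densest bins of CpG the median level difference was -0.18, -0.22 and -0.28, the input difference 0.20, 0.23 and 0.28, and the IP difference 0.03, 0.01 and -0.002. CpG-dense probes over 1 kb from a start differed by -0.12.

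With a lowess trend on probe G+C content removed from each array the median difference was -0.039, and with normexp background correction -0.11.

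Loss of Dnmt1 was accompanied by higher levels at nearly all members. The median Dnmt1-KO minus WT difference was 0.99 (quartiles 0.63 and 1.37), against 0.25 for the other near-start probes, 0.06 for those free of CpG and -0.08 for probes over 1 kb from a start. It was above 0 in 12793 members, or 94.9%, against 52.1% of all probes. It was at least 1 in 6627 members, or 49.2%, against 10.7% of all probes, and 44 members, or 0.327%, were lower by at least 1, against 8.16%. CpG-dense probes over 1 kb from a start differed by 0.93, so nearness to a start was not needed here either.

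Both channels were higher in Dnmt1-KO, the input by a median of 2.48 and the IP by 3.51. The level difference of the 3 densest bins was 0.94, 0.98 and 1.08. In the 6283 promoters with both kinds of probe, the difference was 0.97 at the members and 0.33 at the CpG-free probes.

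These sizes depend on the wide spread of the Dnmt1-KO arrays. With the arrays of a design set to 1 spread the median difference was 0.20, and 2.22% of members were higher by at least 1, against 1.03% of all probes. With a G+C trend removed the median was 0.14, slightly below the 0.15 of the other near-start probes, and 12.7% of members were higher, against 8.68% of all probes. With both, the median was 0.018 and 1.44% of members were higher, against 1.04%. Under these 3 settings 12.3%, 18.4% and 3.61% of members reached a level of at least 1 in Dnmt1-KO, against 2.51%, 11.9% and 1.99% of all probes, so how far the members' level exceeded WT cannot be told apart from scanner, spread and G+C response.

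Gene groups differed more among the members than the genotypes Eed-KO and WT did. Among 11 lists of genes, germ-line and meiosis genes had the highest median level in each genotype. Their 35 members at 23 of 66 listed genes had medians of 0.83 in Eed-KO, 2.87 in Dnmt1-KO and 1.34 in WT, and 14, 32 and 21 of the 35 reached a level of at least 1, against 5.88%, 76.7% and 6.37% of all members. The median differences of the germ-line members from WT were -0.32 in Eed-KO and 1.29 in Dnmt1-KO. In Dnmt1-KO 24 of 35 were higher by at least 1, against 49.2% of all members. The median Dnmt1-KO difference of the germ-line members did not hold under scaling. It was -0.0051 with the arrays set to 1 spread and -0.14 with the G+C trend removed as well. Germ-line genes are known targets of a variant PRC1 with Mga, Max, E2f6 and L3mbtl2, in which Rybp is a subunit.

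Some germ-line genes with several members, which were picked after their values were seen, show how far the probes of a gene varied. Ddx4, an RNA helicase of germ cells, had 1.88 and 1.53 in Eed-KO, 3.85 and 3.94 in Dnmt1-KO and 1.82 and 2.03 in WT at its 2 members. Stag3 had 2.91 and 1.60 in Eed-KO, 3.46 and 3.58 in Dnmt1-KO and 3.09 and 2.05 in WT. Both were high at each probe in every genotype. Boll, which encodes an RNA-binding protein of meiosis, had 0.89, -1.27 and 1.71 in Eed-KO, 3.88, 4.18 and 2.66 in Dnmt1-KO and 1.30, 2.33 and 1.51 in WT. Its second member lay below 0 in Eed-KO alone and was the 1 germ-line member lower by at least 1 there. Dazl, its relative, had 0.07, 1.18 and 0.99 in Eed-KO, 1.07, 2.94 and 3.51 in Dnmt1-KO and 0.32, 1.21 and 1.34 in WT. Taf7l, a germ-cell form of a general transcription factor subunit, had 0.31 and 0.38 in Eed-KO, 5.33 and 1.64 in Dnmt1-KO and 0.63 and 0.32 in WT, so its 2 probes were apart in Dnmt1-KO only. Not all genes of the list are shown by probe. Ddx25, with 2 members, averaged 1.39 in Eed-KO, 2.53 in Dnmt1-KO and 1.18 in WT, and each member was higher in Eed-KO than in WT. Cntln, with 3 members, averaged 0.37, 2.79 and 0.995 in the same order.

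Developmental transcription factors came next in Eed-KO and Dnmt1-KO, and the Hox clusters in WT. The 151 members at 74 of 104 developmental transcription factor genes had medians of 0.60 in Eed-KO, 2.03 in Dnmt1-KO and 0.64 in WT. Of these members 43, 141 and 34 reached a level of at least 1, or 28.5%, 93.4% and 22.5%. Of all members 5.88%, 76.7% and 6.37% reached it. In Eed-KO the median difference of the developmental members was -0.05, with 64 of 151 above 0. In Dnmt1-KO 103 of 151 were higher by at least 1, against 49.2% of all members. Their median Dnmt1-KO difference was 1.33, against 0.99 for all members. The Eed-KO median turned to 0.0848 with the G+C trend removed and to 0.0256 with normexp. The 33 members at 18 of 39 Hox genes had 0.51, 1.77 and 0.71, with median differences of -0.18 (0.0227 with the G+C trend removed) and 1.12. The 78 members at 37 of 57 signalling and morphogen genes had 0.39, 1.70 and 0.55, with -0.22 and 1.10. Developmental genes are classical targets of PRC2 in ES cells. The medians of these 3 lists lay above that of all members in Eed-KO, but so they did in WT, and so did most other lists in Eed-KO. There fibroblast feeder genes had 0.46 and imprinted, pluripotency and Polycomb complex genes 0.29 each. DNA methylation genes at 0.15 and housekeeping genes at 0.14 lay below all members in Eed-KO.

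Housekeeping genes lay lower than the class and other groups that ES cells express lay near it. The 84 members at 51 of 75 housekeeping genes had medians of 0.14 in Eed-KO, 0.94 in Dnmt1-KO and 0.32 in WT. These lay below the medians of all members. A level of at least 1 was reached by 1, 37 and 2 of them (1.19%, 44.0% and 2.38%), against 5.88%, 76.7% and 6.37% of all members. The Dnmt1-KO minus WT difference of the housekeeping members was 0.61, with 25 of 84 higher by at least 1, against 49.2% of all members. It turned to -0.0432 with the G+C trend removed and to -0.0826 with the arrays set to 1 spread as well. The 36 members at 12 of 30 pluripotency genes had 0.29, 1.59 and 0.50, the 78 at 31 of 40 Polycomb complex genes 0.29, 1.43 and 0.41, and the 19 at 10 of 19 DNA methylation genes 0.15, 1.41 and 0.37, all near the class as a whole. The 24 members at 15 of 45 imprinted genes had 0.29, 1.62 and 0.50, and 6, 20 and 6 reached a level of at least 1.

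Genes of feeder fibroblasts, the other cell type that a culture could hold, had 14 members at 10 of 30 genes with medians of 0.46, 2.00 and 0.58, and genes of terminal differentiation had 2 members at 2 of 38 genes. Because a level at a promoter is a property of the chromatin of all cells in the culture, a share of feeder cells cannot be told apart from a change in the ES cells, and its part in these levels was not tested.

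**Figure D4:**
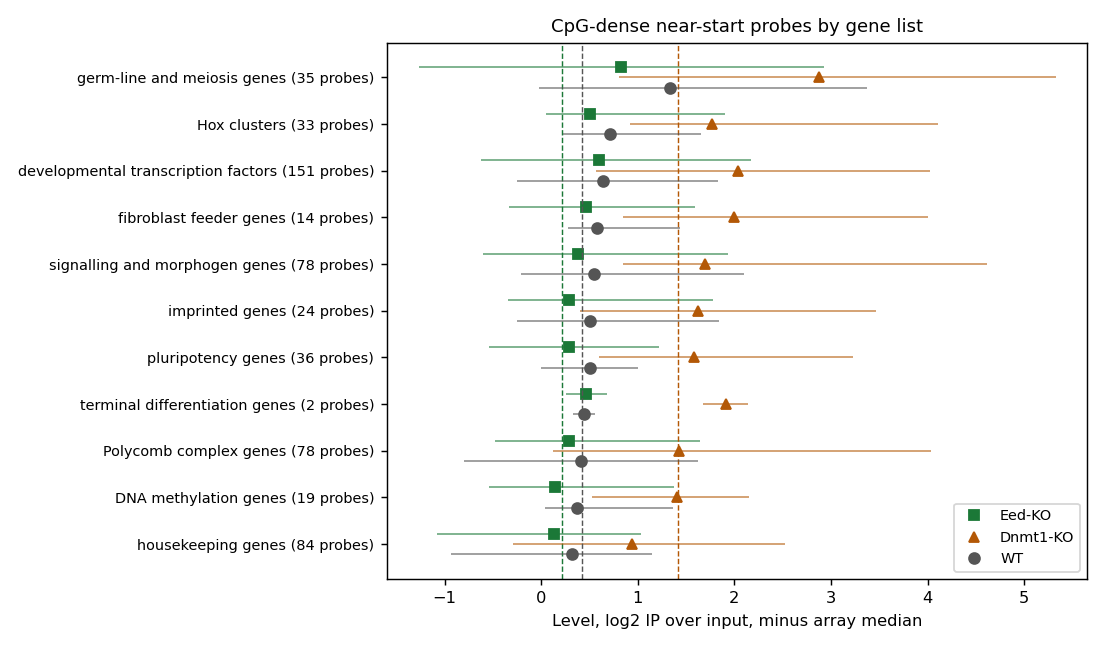
Level (log2, relative to the array median) of the members at genes of each list in Eed-KO, Dnmt1-KO and WT. Markers give the median, lines run from the lowest to the highest member, and the dashed line is the median of all members. Germ-line genes have the highest medians, 0.83, 2.87 and 1.34, and housekeeping genes lie below the dashed line in each genotype.

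For the 504 genes with at least 4 members the level was taken as the mean over members, with the SD or, for differences, the SE over probes, which covers probe scatter only. Gene means had medians of 0.22 in Eed-KO, 1.51 in Dnmt1-KO and 0.44 in WT. A mean of at least 1 was reached by 8 genes in Eed-KO (1.59%), 462 in Dnmt1-KO (91.7%) and 9 in WT (1.79%). In Eed-KO no gene was higher or lower than WT by at least 1 (0.0% each way), and 470 of 504 genes lay below 0. In 240 genes each member was lower in Eed-KO than in WT, and in 2 each was higher. In Dnmt1-KO 294 genes were higher by at least 1 (58.3%) and none was lower, while in 449 each member was above WT. The 3 genes below WT on average were Morf4l1 at -0.30, Khsrp at -0.23 and Mier2 at -0.06, and they were picked for that.

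Bmp6, a ligand gene of the transforming growth factor beta family, was among the genes of highest WT mean and has 4 members in chr13:38352670-38353979 with levels of 1.77, 1.89, 1.04 and 0.52 in Eed-KO, 3.24, 4.62, 3.59 and 2.41 in Dnmt1-KO and 1.30, 2.10, 1.07 and 0.47 in WT. Its differences from WT were 0.07 ± 0.14 in Eed-KO and 2.23 ± 0.17 in Dnmt1-KO (SE, n = 4 probes). The probes kept the same high and low ends in Eed-KO and WT, and the 2 genotypes overlapped, while each Dnmt1-KO value lay above the highest of both. Fgf9, a fibroblast growth factor gene with 5 members, averaged 1.17 in Eed-KO, 1.55 in Dnmt1-KO and 1.04 ± 0.45 in WT (SD), a Dnmt1-KO difference of 0.52 ± 0.24.

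Gpr180, which encodes a membrane protein with receptor-like topology, had the highest WT mean, 1.59 ± 0.68, with 1.29 in Eed-KO and 2.82 in Dnmt1-KO (chr14:117019031-117019704). Its 4 probes had 2.22, 1.80, 0.48 and 0.67 in Eed-KO, 3.03, 2.57, 2.91 and 2.78 in Dnmt1-KO and 2.29, 2.03, 1.15 and 0.88 in WT. The upstream pair was the high one in Eed-KO and WT, and Dnmt1-KO was nearly even across the promoter. Paqr9, a membrane receptor gene of the progestin and adipoQ receptor family, averaged 1.35 in Eed-KO, 2.97 in Dnmt1-KO and 1.32 ± 0.70 in WT (chr9:95368535-95369734). Foxe3, a forkhead factor of the lens, had 1.04, 1.83 and 1.02 ± 0.49.

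The other genes of high WT mean were B3galt6, Man1a2 and A830073O21Rik, with D930049A15Rik named for its Eed-KO difference. B3galt6, a galactosyltransferase of the proteoglycan linker, averaged 0.95 in Eed-KO, 3.02 in Dnmt1-KO and 1.22 ± 0.50 in WT (chr4:154835697-154836345). Man1a2, a mannosidase of the Golgi, averaged 0.68, 1.91 and 1.04 ± 0.48. The uncharacterised genes A830073O21Rik and D930049A15Rik averaged 0.88, 2.43 and 1.15, and 1.15, 2.30 and 0.92. With the arrays set to 1 spread and the G+C trend removed, the Dnmt1-KO difference turned to -0.47 at Fgf9, -0.38 at Foxe3, -0.37 at Man1a2, -0.33 at Gpr180, -0.27 at A830073O21Rik, -0.0966 at Paqr9, -0.0614 at B3galt6 and -0.013 at D930049A15Rik, while it was 0.27 at Bmp6.

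Only 6 genes met the rule for naming Eed-KO differences, a mean of at least 1 in WT or Eed-KO with each member on 1 side of WT. Parp12, which encodes a mono-ADP-ribosyltransferase, had the most negative of them, -0.49 ± 0.07, with probe levels of 1.07, 0.38, -0.13 and 0.79 in Eed-KO, 3.56, 2.52, 1.81 and 2.47 in Dnmt1-KO and 1.35, 0.97, 0.44 and 1.29 in WT. Each of its probes was lower in Eed-KO than in WT. Its input differed by 0.45 and its IP by -0.04, so this difference too was read in the input. Man1a2 had -0.36 ± 0.06, Gpr180 -0.29 ± 0.13, B3galt6 -0.27 ± 0.08 and A830073O21Rik -0.27 ± 0.07. Input and IP differences were 0.29 and -0.07 at Man1a2, 0.16 and -0.11 at B3galt6, and 0.12 and -0.15 at A830073O21Rik. At Gpr180 the input difference was -0.27 and the IP difference -0.57, so there the lower level was read in the IP. D930049A15Rik was the 1 gene of the 6 that was higher in Eed-KO, by 0.24 ± 0.08. Its probe levels were 1.29, 1.12, 0.95 and 1.26, against 1.07, 1.08, 0.49 and 1.02 in WT. Its input differed by -0.04 and its IP by 0.19. Like Gpr180 it lies on chromosome 14, which an alternative setting left out. The rule itself favours these directions. Parp12, Man1a2, B3galt6 and A830073O21Rik reached a mean of 1 in WT alone, D930049A15Rik in Eed-KO alone and Gpr180 in both. The directions of these genes are therefore no support for a shift.

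**Figure D5:**
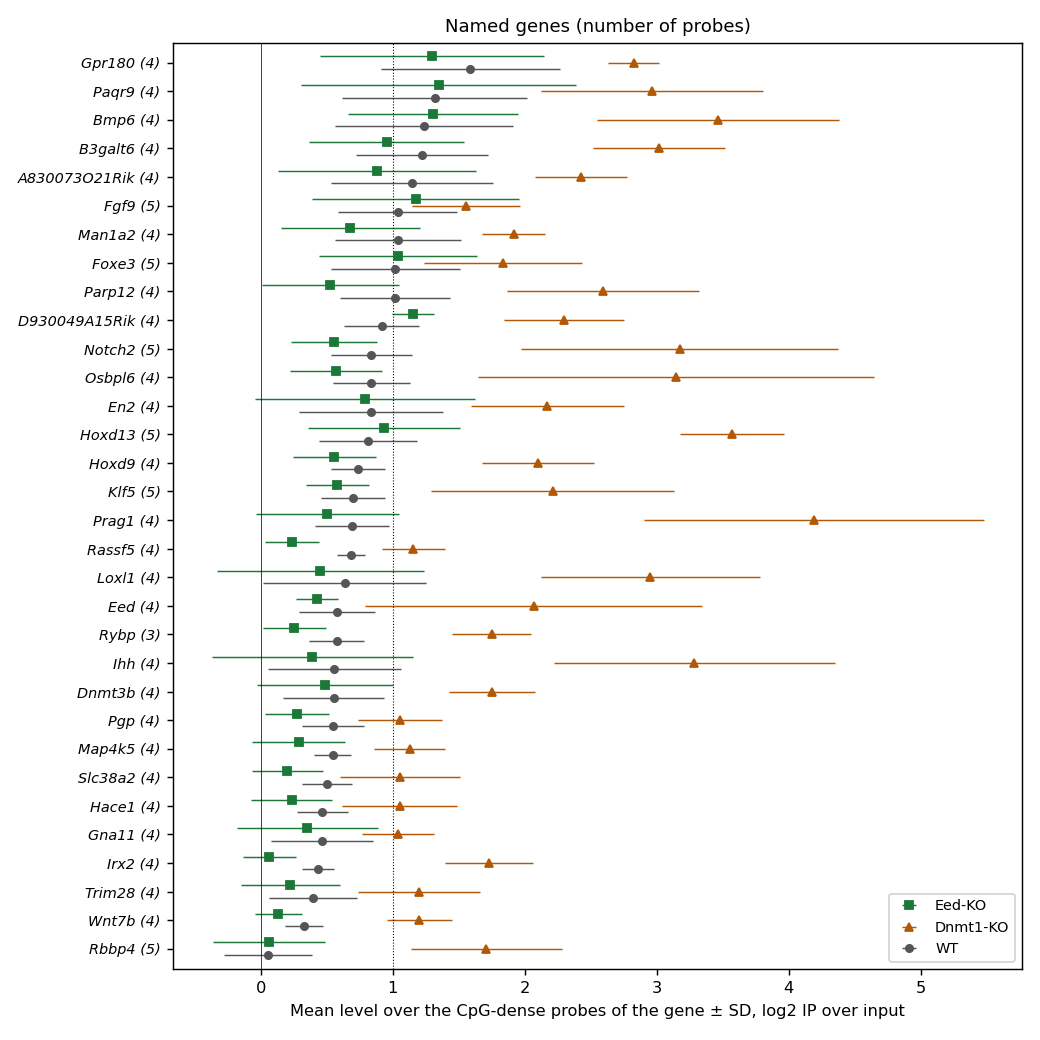
Mean level (log2, relative to the array median) over the CpG-dense members of each named gene in Eed-KO, Dnmt1-KO and WT, with the SD over probes as error bars and a dotted line at a level of 1. Dnmt1-KO means lie above WT at each gene drawn, from 1.04 at Gna11 to 4.19 at Prag1.

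The highest Dnmt1-KO differences with each member above WT were those of Prag1, Hoxd13, Ihh, Notch2, Loxl1 and Osbpl6. Each had a mean of at least 1 in Dnmt1-KO and not in WT, so the rule for naming favoured that direction. Prag1, which encodes a pseudokinase scaffold, had 0.05, 0.09, 0.67 and 1.19 in Eed-KO, 2.80, 5.29, 5.28 and 3.39 in Dnmt1-KO and 0.32, 0.63, 0.93 and 0.88 in WT (chr8:37563200-37563672), a difference of 3.50 ± 0.59. Its input differed by 2.05 and its IP by 5.55. Hoxd13, the limb and digit gene at the end of its cluster, had 1.00, 0.57, 0.68, 0.51 and 1.91 in Eed-KO, 3.36, 3.65, 3.67, 3.05 and 4.11 in Dnmt1-KO and 0.84, 0.63, 0.73, 0.42 and 1.42 in WT (chr2:74468922-74469559). Its difference of 2.76 ± 0.09 varied least between probes among these genes of highest difference, and no Dnmt1-KO probe overlapped the other genotypes.

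Ihh, a hedgehog ligand, had 1.13, 0.81, 0.23 and -0.61 in Eed-KO, 4.41, 3.79, 2.998 and 1.94 in Dnmt1-KO and 0.61, 1.17, 0.51 and -0.07 in WT (chr1:74884122-74884825), a difference of 2.73 ± 0.38. Notch2, a receptor, differed by 2.34 ± 0.44, Loxl1, an enzyme that crosslinks elastin, by 2.31 ± 0.30, and Osbpl6, of the oxysterol-binding protein family, by 2.31 ± 0.80. Of Prag1, Hoxd13, Ihh, Notch2 and Loxl1, 1 member each was saturated in the Dnmt1-KO IP. The same held for 1 member each of B3galt6, Fgf9, En2, Irx2 and Eed among the other named genes. With the arrays set to 1 spread and the G+C trend removed these differences were 1.02 for Prag1, 0.65 for Hoxd13, 0.70 for Ihh and 0.43 for Notch2, in the same direction, and the count of genes higher by at least 1 was 1.

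The lowest differences among genes that reached a level of at least 1 in Dnmt1-KO, with each member on 1 side of WT, were those of 6 other genes. Rassf5, a Ras effector, had 0.39, 0.42, 0.01 and 0.11 in Eed-KO, 1.06, 0.94, 1.13 and 1.49 in Dnmt1-KO and 0.63, 0.83, 0.58 and 0.69 in WT, a Dnmt1-KO difference of 0.47 ± 0.14. Pgp, a phosphoglycolate phosphatase, differed by 0.51 ± 0.14, Slc38a2, an amino acid transporter, by 0.55 ± 0.20, and Gna11, a G protein subunit, by 0.57 ± 0.31. The kinase gene Map4k5 differed by 0.58 ± 0.09 and the ubiquitin ligase gene Hace1 by 0.59 ± 0.16. These 6 genes averaged between 1.04 and 1.15 in Dnmt1-KO. With the arrays set to 1 spread and the G+C trend removed their differences turned to values between -0.35 at Rassf5 and -0.16 at Gna11.

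The remaining named genes had the highest or lowest WT mean of a list. En2, a homeobox gene of the midbrain, averaged 0.79 in Eed-KO, 2.17 in Dnmt1-KO and 0.83 in WT, while Irx2 averaged 0.06, 1.73 and 0.43. Hoxd9 averaged 0.56, 2.10 and 0.74, below Hoxd13 in the same cluster. The ligand gene Wnt7b averaged 0.13, 1.20 and 0.33. Klf5, a pluripotency factor, averaged 0.58, 2.21 and 0.70, and Trim28, a corepressor, 0.22, 1.20 and 0.39. Dnmt3b, the de novo methyltransferase, was the 1 DNA methylation gene with at least 4 members and averaged 0.49, 1.75 and 0.55.

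Genes of the complexes themselves lay near the class as a whole in Eed-KO and WT by their list median, while single genes lay lower or higher. E2f6, with 3 members, averaged 0.76 in Eed-KO and 1.00 in WT. Eed, in chr7:89855598-89856183, had 0.66, 0.34, 0.32 and 0.38 in Eed-KO, 0.67, 1.31, 3.30 and 2.99 in Dnmt1-KO and 0.98, 0.40, 0.33 and 0.59 in WT, so its promoter was present on the Eed-KO arrays and checks nothing about the knockout. Its Dnmt1-KO values were lower at the upstream pair than at the pair at the start. However, 1 Eed member was saturated in the Dnmt1-KO IP, so its level there can be capped. Rbbp4, a histone-binding subunit of PRC2 and other complexes, had the lowest WT mean of the Polycomb list with 0.06 in Eed-KO, 1.71 in Dnmt1-KO and 0.05 in WT. Rybp has 3 members, in chr6:100252472-100253381, with 0.43, -0.02 and 0.35 in Eed-KO, 1.41, 1.99 and 1.84 in Dnmt1-KO and 0.54, 0.38 and 0.80 in WT, and differences of -0.32 ± 0.11 in Eed-KO and 1.17 ± 0.22 in Dnmt1-KO (SE, n = 3 probes), of which the second was -0.022 with the arrays set to 1 spread and the G+C trend removed. Dnmt1 has no CpG-dense probe near its start.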

How the data were processed

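The deposited scanner files hold background-subtracted, dye-normalised spot intensities from Agilent Feature Extraction, per the file headers version 9.5.3.1 for Eed-KO and WT and 10.1.1.1 for Dnmt1-KO. The submitters' processing notes list 9.5.3.1 for all. The level was log2 of red over green processed intensity minus the median of each array's non-control probes. Input and IP signals were centred in the same way. The deposited value table holds log10 ratios, which matched the scanner log ratios within 0.001, up to 1 constant per array, for at least 99.0% of probes. Its column medians were -0.0317 and -0.0316 in Eed-KO, -0.121 and -0.114 in Dnmt1-KO and -0.025 and -0.027 in WT, and the origin of the constants is unknown. Gene symbols were updated through 16902 of 17551 accessions with a GRCm38.p6 RefSeq table used for names only.

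Saturated probes were kept, and a probe flagged as an outlier on any array of its design was not used. Members and gene lists were chosen with earlier results of these data known. Named genes have at least 4 members and are the 8 highest WT means, the 6 highest and lowest differences of each knockout among genes at a level of at least 1 with each member on 1 side, the list genes of highest and lowest WT mean, and Dnmt1, Eed and Rybp. One probe that the rule for sequences picked is not reported here. Shares carry exact binomial intervals. Precision is limited by the number of arrays. The 17 alternatives cover scaling, background correction, G+C trend, probe filters, thresholds and single designs. Python 3.11.15 with numpy 2.4.6, pandas 2.3.3 and statsmodels 0.14.6 was used, with R 4.3.3 and limma 3.58.1 for normexp (offset 50).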

Additional observations from a re-analysis of the deposited data

Results flagged for a closer look

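On both array designs the members' median Eed-KO minus WT difference was below 0 and their median Dnmt1-KO minus WT difference above 0. The median per-probe gap between the Dnmt1-KO and the Eed-KO difference was 1.20 over all members. It was 1.55 for germ-line and meiosis genes, 1.55 for fibroblast feeder genes, 1.47 for Hox clusters, 1.46 for developmental transcription factors, 1.38 for pluripotency genes and 1.37 for signalling and morphogen genes. It was 1.30 for DNA methylation genes, 1.24 for Polycomb complex genes, 1.16 for imprinted genes and 0.75 for housekeeping genes. The gap between the knockouts was not tested, both differences share the WT arrays, and the Dnmt1-KO arrays differ from the others in scanner and spread.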

How the results depend on the processing

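No paired analysis was possible because each genotype had 1 array per design. Shares at a level of at least 1 are given for Eed-KO, Dnmt1-KO and WT in that order, and "higher" or "lower" is the share of members past 1. Centring on the mode gave 6.40%, 81.6% and 7.57%, differences of -0.23 and 1.04, 52.9% higher in Dnmt1-KO and 64.5% of genes. Setting arrays to 1 spread gave 4.55% in Eed-KO and 12.3% in Dnmt1-KO, differences of -0.24 and 0.20, 2.22% higher, 0.208% lower and 0.198% of genes. Normexp gave 9.45%, 82.7% and 12.5%, an Eed-KO difference of -0.11 with 0.0890% higher, 0.119% lower, input 0.11 and IP 0.028, and a Dnmt1-KO difference of 0.94 with 45.8% higher, 0.171% lower, input 2.36 and IP 3.29. Removing the G+C trend gave 3.84%, 18.4% and 2.80%, an Eed-KO difference of -0.039 with 0.304% lower, a Dnmt1-KO difference of 0.14 with 12.7% higher, 2.37% lower and 6.15% of genes, and 0.397% of genes at the level in WT. Both together gave 2.80%, 3.61% and 2.80%, an Eed-KO difference of -0.044 with 0.289% lower, a Dnmt1-KO difference of 0.018 with 1.44% higher, 0.468% lower and 0.198% of genes, and 0.397% of genes in WT. At 6 CpG per 100 bases the shares were 7.12%, 70.4% and 7.05%, Eed-KO differed by -0.18 (input 0.19, IP 0.024) and Dnmt1-KO by 0.93 (45.1% higher, 0.449% lower, IP 3.44). At 10 they were 4.62%, 81.8% and 5.64%, with -0.25 (input 0.25, IP 0.0062) and 1.03 (52.5% higher, 0.222% lower, 70.3% of genes). Within 500 bp Eed-KO had 4.96% and WT 5.72%, with an Eed-KO difference of -0.22 and IP 0.012. Array 1 alone gave 5.48% and 78.4% in Eed-KO and Dnmt1-KO, Eed-KO 0.563% lower with input 0.32 and IP 0.11, and a Dnmt1-KO difference of 1.03 with 51.9% higher, input 2.52 and IP 3.60. Array 2 alone gave 75.04% in Dnmt1-KO, Eed-KO 0.297% lower with input 0.14 and an IP difference of -0.0702, reversed in sign, and a Dnmt1-KO difference of 0.95 with 46.4% higher, input 2.43 and IP 3.43. Leaving out chromosomes 12, 14, 17 and X gave an Eed-KO input of 0.24 and IP of 0.028. A 1.5-fold threshold gave 17.8%, 92.0% and 29.5%, and a 3-fold threshold 1.33%, 38.5% and 0.809%. Dnmt1-KO minus WT changed sign at 1 spread for Gpr180 (-0.29), A830073O21Rik (-0.0957), the germ-line list (-0.0051), Fgf9 (-0.33), Foxe3 (-0.22), Man1a2 (-0.21), Rassf5 (-0.18), Pgp (-0.0644), Map4k5 (-0.0272) and Slc38a2 (-0.0194). With the G+C trend removed alone it did so for Map4k5 (-0.38), Rassf5 (-0.36), Trim28 (-0.22), Hace1 (-0.22), Slc38a2 (-0.19), Pgp (-0.19), Gna11 (-0.17), Fgf9 (-0.13), Wnt7b (-0.0728), Foxe3 (-0.0039) and the housekeeping list (-0.0432). With both it did so for Gpr180 (-0.33), Paqr9 (-0.0966), B3galt6 (-0.0614), A830073O21Rik (-0.27), D930049A15Rik (-0.013), Parp12 (-0.0633), En2 (-0.0495), Rybp (-0.022), the germ-line list (-0.14), Fgf9 (-0.47), Foxe3 (-0.38), Man1a2 (-0.37), Rassf5 (-0.35), Map4k5 (-0.26), Pgp (-0.22), Slc38a2 (-0.19), Hace1 (-0.17), Gna11 (-0.16), Trim28 (-0.10), Wnt7b (-0.0086) and the housekeeping list (-0.0826). Eed-KO minus WT changed sign with the G+C trend removed for the developmental (0.0848) and Hox (0.0227) lists, En2 (0.12), Dnmt3b (0.13), Klf5 (0.0751), Trim28 (0.0572), Gna11 (0.0435), Ihh (0.0367) and Wnt7b (0.0293), and at 1 spread for Paqr9 (-0.10), Bmp6 (-0.0628), Foxe3 (-0.0434) and the terminal differentiation list (-0.0229). The cause was not tested. Scaling, centring and G+C settings give no input or IP value. The terminal differentiation list had no member on array 1 or at 10 CpG. Of the remaining values, 130 for the class and 1043 for genes and lists stayed within the interval or spread of the reported value.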
